A study of Mus musculus with 11 samples.

Results

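Hepatic stellate cells (HSCs) isolated 72 h after a single dose of carbon tetrachloride (CCl4) were compared with HSCs of uninjured mice, using every cell of 1 10X Chromium library on each side that had at least 300 detected genes and at most 30% of its unique molecular identifiers (UMIs) on mitochondrial genes. These filters kept 7310 cells at 72 h and 6850 uninjured cells, together 14160 of the 30999 10X cells of the series that pass them. UMIs were summed per gene over the cells of a library and scaled to a library total of 1000000 (CPM). The 6231 genes of 27998 that reached 20 CPM in either library are described here, and they held 95.7% of the uninjured UMIs and 95.9% of those at 72 h. Dock1 and Prmt5 lay just inside that limit at 20.003 CPM in their higher library, and Senp7 (19.997 CPM) and Dusp12 (19.982 CPM) just outside it.

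Both libraries came from adult male Pdgfrb-BAC-eGFP mice on a C57BL/6 background, in which cells that express the PDGF receptor β carry GFP. The 72 h mice were fasted overnight and given CCl4 in olive oil once by intraperitoneal injection, and the sources used here do not state that the uninjured mice were fasted or given oil. A retrograde perfusion with pronase and collagenase D released the cells, which were enriched on a density gradient before viable GFP+ CD45- CD102- cells were sorted, an isolation meant for buoyant, fat-storing HSCs. Each library pooled 3 mice. There was therefore 1 library per condition, no replicate and no test, and all intervals are exact at 95% and cover counting error only.

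HSCs lie between the hepatocytes and the sinusoidal endothelium, where they store vitamin A as retinyl esters and secrete basement membrane and growth factors. After injury they can become myofibroblasts, which lose the store of lipid, divide, contract and lay down fibrillar collagen. CCl4 is converted to a toxic radical by cytochrome P450 enzymes of the hepatocytes around the central vein, and so kills the cells of the centre of the lobule.

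The library at 72 h held 86664085 UMIs and the uninjured library 46392040, with medians of 11344 and 6718 UMIs per cell. Mitochondrial genes took 2.84% and 1.83% of UMIs, and cytosolic ribosomal proteins 22.6% and 9.53%. Malat1, a long non-coding RNA that stays in the nucleus, was at 12741 CPM at 72 h and 33925 CPM in uninjured cells. The libraries shared 74 cell barcodes, within the range of 33 to 74 among all pairs of 10X libraries.

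The cells carried the markers that give them their name. Reln, which encodes the secreted glycoprotein reelin and marks HSCs within the hepatic mesenchyme, was at 1405 CPM in uninjured cells and 564 CPM at 72 h. Lrat, the enzyme that makes retinyl esters for storage, was at 1253 CPM and 941 CPM. In the library of uninjured fibroblasts and smooth muscle cells made with the other digestion (median 4300 UMIs per cell), Reln was at 0.809 CPM and Lrat at 14.4 CPM. UMIs of Reln were found in 99.5% of uninjured cells, 96.9% of cells at 72 h and 0.261% of cells of that other library, and UMIs of Lrat in 99.3%, 98.3% and 3.49%. At least 3 of 7 HSC markers (Vipr1, Colec11, Pth1r, Ecm1, Hgf, Reln and Lrat) were detected in 6848 of 6850 uninjured cells and in 7293 of 7310 cells at 72 h. After every cell was thinned to 2000 UMIs, which left out 114 uninjured cells and 0 cells at 72 h, this held for 6734 of 6736 uninjured cells and for 6648 of 7310 cells at 72 h (90.9%). All 7 markers were lower at 72 h, and 5 of them by 2-fold or more.

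Markers of other cell types were low beside those of HSCs, but the sums of several lists differed between the libraries. The 8 fibroblast markers summed to 31.4 CPM in uninjured cells and 348 CPM at 72 h, led by Gpx3 (17.3 and 176 CPM) and Dpt (6.70 and 78.5 CPM). Clec3b was at 0.0647 and 4.49 CPM, with UMIs in 0.0438% and 0.534% of cells, so its UMIs at 72 h lay in few cells. In the uninjured library of the other digestion it was at 2400.4 CPM. Cells with UMIs of at least 3 of the fibroblast markers were 8 of 6850 uninjured and 1295 of 7310 at 72 h, or 0.0148% and 1.89% at equal depth. Of those 1295 cells, 1283 also had at least 3 HSC markers, with Reln at 455 CPM and Lrat at 678 CPM, and with Col1a1 at 3624 CPM beside 1679.8 CPM in the remaining cells of the library. Their median depth was 15243.0 UMIs. The setting used below leaves out cells with at least 3 markers of any other type, 1348 at 72 h and 232 uninjured. Of the uninjured cells, 204 had 3 hepatocyte markers and 8 had 3 fibroblast markers. The part of the 1295 cells alone was not tested. The vascular smooth muscle list summed to 18.6 and 24.9 CPM, nearly all from Myh11, with Rergl at 0 in both libraries. Endothelial markers summed to 113 and 141 CPM with Cdh5 at 0.0431 and 0 CPM, and leucocyte markers to 5.73 and 15.5 CPM with Ptprc and Cd3e at 0. Hepatocyte markers, led by Alb, summed to 72.7 CPM in uninjured cells and 35.5 CPM at 72 h. The mesothelial list was at 0 except for Wt1, at 1.10 and 34.2 CPM, and Krt19, Msln, Upk3b, Upk1b and Gpm6a had no UMIs. Cholangiocyte markers summed to 0.647 and 4.79 CPM, and Schwann cell markers to 0.927 and 1.40 CPM.

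At 72 h, 409 of the 6231 genes were at least 2-fold higher than in uninjured cells, a background of 6.56%, and 606 were at least 2-fold lower, a background of 9.73%. The whole interval of the ratio lay past 2-fold for 361 and 505 of them. The higher side had the longer tail: 101 genes were 5-fold or more higher and 28 were 5-fold or more lower, and at 10-fold the numbers were 76 and 6. Ube2s lay just inside the 2-fold limit and Palm just outside it among higher genes, as Golga4 and Ctgf did among lower genes. The median gene was lower by 0.214 on the log2 scale (fold 0.862). Ratios near 2-fold are to be read against that shift. A gene that reached 20 CPM in 1 library alone had to be higher in that library, which held for 403 genes at 72 h and 877 in uninjured cells. The counts given below for list genes at 20 CPM or more are subject to this, and are to be read beside the shares of 6.56% and 9.73%. Of the genes past 2-fold, 40.3% were higher, and the share was 55.4% with scaling by the median ratio, 50.1% with the trimmed mean of M values and 64.1% with mitochondrial and ribosomal UMIs left out. Under the median ratio scaling, 522 of 6231 genes were higher and 421 lower. Without mitochondrial and ribosomal UMIs, 629 of 6771 were higher and 353 lower. Without cells with at least 3 markers of another cell type, 369 of 6202 were higher and 537 lower. List counts under these settings are to be read beside these numbers instead. A CPM is a share of the UMIs of a library, so these ratios do not say how much RNA of a gene a cell held.

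**Figure D1:**
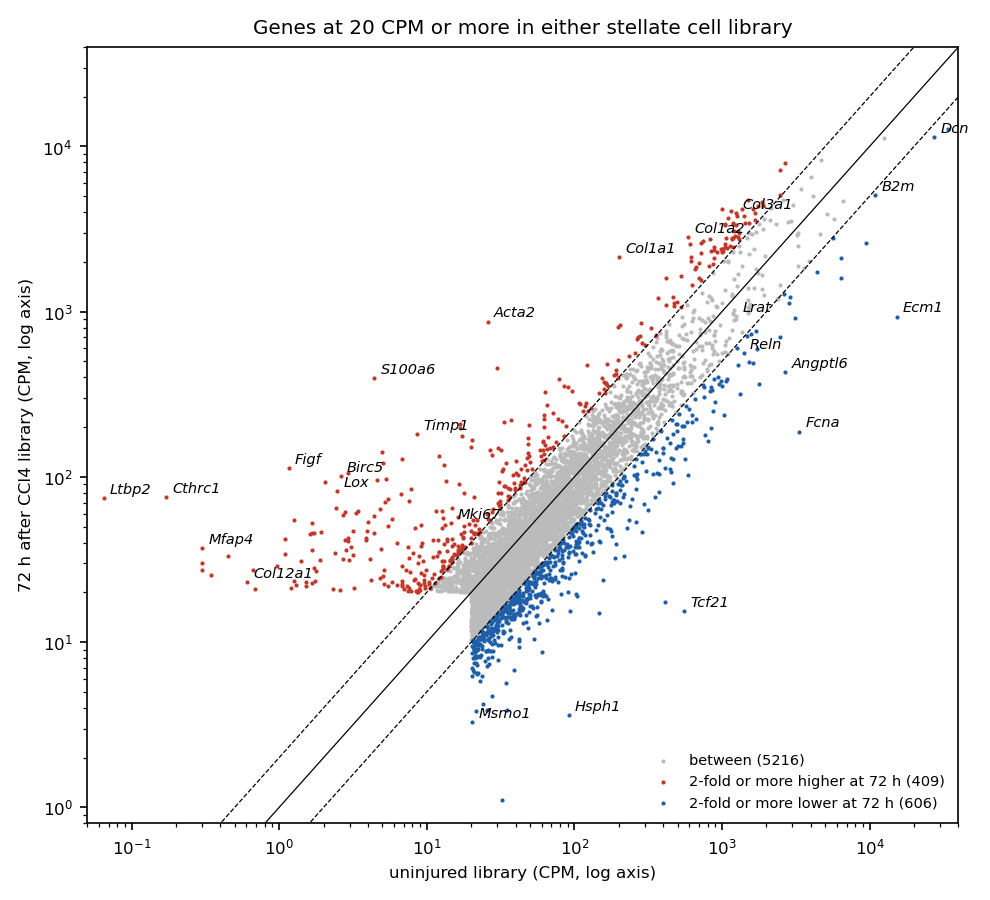
Level of each of the 6231 genes in the uninjured library (x axis) and in the 72 h library (y axis), in CPM on log axes; each point is 1 gene, the solid line marks equal levels and the dashed lines a 2-fold ratio. The 409 genes in red were at least 2-fold higher at 72 h and the 606 in blue at least 2-fold lower, with S100a6, Acta2 and Col1a1 far above the lines and Ecm1, Fcna and Tcf21 far below.

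Among genes of at least 100 CPM in the higher library, the 12 largest ratios on the higher side ran from 11.8-fold to 96.8-fold. Figf, which encodes the lymphangiogenic growth factor VEGF-D, went from 1.16 CPM to 113 CPM, a 96.8-fold ratio (interval 74.2 to 129). S100a6, a small calcium-binding protein, went from 4.42 CPM to 398 CPM, or 90.1-fold (78.6 to 104). Acta2, the smooth muscle α-actin by which myofibroblasts are recognised, was at 26.0 CPM and then 872 CPM, or 33.5-fold (31.6 to 35.5). All 3 were scarce in uninjured HSCs. Timp1, an inhibitor of matrix metalloproteinases, was at 8.56 and 181 CPM (21.1-fold, 19.1 to 23.4). Plagl1, an imprinted zinc finger transcription factor, was at 16.7 and 208 CPM (12.5-fold), and Ankrd55 at 6.81 and 129 CPM (18.9-fold). Birc5, Cdca3, Ccnb2, Ube2c, Stmn1 and Cenpa, which act in mitosis or on the spindle, were 11.8-fold to 38.5-fold higher.

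The 12 largest ratios on the lower side included several genes of the resting stellate cell. Tcf21, a basic helix-loop-helix transcription factor of HSCs, was at 551 CPM in uninjured cells and 15.4 CPM at 72 h, 35.7-fold lower. Ecm1, a secreted matrix protein and the third most abundant transcript of uninjured HSCs, was at 15298 CPM and 935 CPM, 16.4-fold lower (interval 16.2 to 16.5). Fcna, which encodes the lectin ficolin A, was at 3327 CPM and 188 CPM, 17.7-fold lower. The secreted products among them had been some of the most abundant messages of the uninjured cells. The heat shock gene Hspa1a (414 and 17.6 CPM) was 23.6-fold lower. Hhip, an antagonist of hedgehog ligands, was 9.76-fold lower, and Adamts13, the protease that cleaves von Willebrand factor, 6.61-fold lower. The angiopoietin-like Angptl6 (2695 and 429 CPM), the adhesion molecule Ntm and the matrix gene Efemp1 were lower by 6.29-fold, 6.22-fold and 5.76-fold. H2-T23 and H2-Q6 were 6.56-fold and 5.87-fold lower, but MHC class I genes share sequence, and their UMIs are uncertain.

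**Figure D2:**
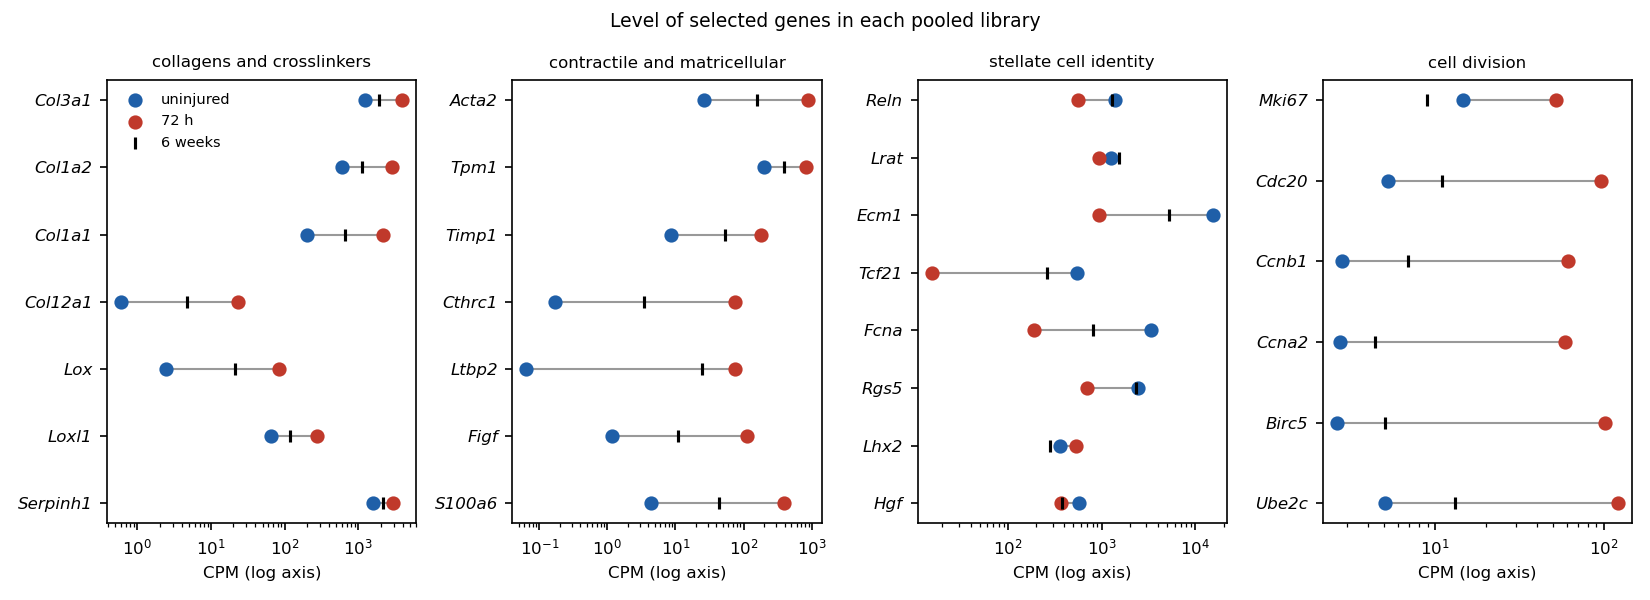
Level in CPM (log axis) of selected genes in the pooled uninjured (blue), 72 h (red) and 6-week (black tick) libraries, in 4 groups; grey lines join uninjured and 72 h values, and there is 1 library per condition. Fibrillar collagens, Acta2 and cell division genes were highest at 72 h, and Ecm1, Tcf21 and Fcna were lowest at 72 h.

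The HSC identity list held 35 genes, all at 20 CPM or more. Of these, 18 were at least 2-fold lower and 0 at least 2-fold higher, with a median ratio of 0.499 beside 0.862 for all genes. Their summed level went from 84519 CPM to 30209 CPM. Tcf21 reached 20 CPM through the uninjured library alone and so had to be lower. Beside Ecm1, Fcna and Tcf21, the lower genes included Colec11 (6438 and 2118 CPM) and Colec10 (1061 and 382 CPM), collectins of the lectin pathway of complement. Vipr1, a receptor for vasoactive intestinal peptide, was at 803 and 164 CPM, and Pth1r, the parathyroid hormone receptor, at 1471 and 711 CPM. Rgs5, a regulator of G protein signalling found in pericytes, was at 2471 and 698 CPM (3.54-fold lower), and the ligands Bmp10 and Bmp5 were at 131 and 39.9 CPM and at 494 and 210.5 CPM. Other genes that define the lineage lay within 2-fold. Lhx2, a transcription factor of HSCs, was at 362 and 539 CPM, Hand2 at 512 and 457 CPM, Des at 403 and 432 CPM, and Pdgfrb at 219 and 224 CPM. Hgf, the hepatocyte growth factor, was at 578 and 369.6 CPM. Dcn, which encodes the collagen-binding proteoglycan decorin and was the second most abundant transcript, was at 27498 and 11393 CPM, 2.41-fold lower. Ngfr, Cxcl12 and Reln were among the 18 as well, and under the median ratio scaling the list gave 15 lower and 0 higher.

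The retinoid and lipid store showed little of this change. Of 14 genes at 20 CPM or more, 0 were 2-fold lower and 1 was 2-fold higher, Dhrs3, a retinaldehyde reductase (62.7 and 138 CPM). The summed level of the 30 listed genes was 4024 CPM and 4395 CPM. Plin2, which coats lipid droplets, was at 324 and 204 CPM, 1.59-fold lower, and Rxra at 96.7 and 69.4 CPM. The isolation selects buoyant cells in both conditions, and its part in these values was not tested.

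Fibrillar collagens were the clearest gain of the matrix. The 3 genes of the collagen signature, Col1a1, Col1a2 and Col3a1, summed to 2035 CPM in uninjured cells and 8929.8 CPM at 72 h, a ratio of 4.39 (interval 4.36 to 4.42). Col1a1, which encodes the α1 chain of type I collagen, was at 201 and 2151 CPM (10.7-fold, 10.5 to 10.9), Col1a2 at 589.7 and 2824 CPM (4.79-fold) and Col3a1 at 1244 and 3954 CPM (3.18-fold). Among these 3, the ratio was largest for Col1a1, which had been the least abundant. Of 13 collagens at 20 CPM or more, 8 were at least 2-fold higher, beside 6.56% of all genes, and 0 lower. The other higher ones were Col5a2 (78.7 and 389 CPM), Col6a3 (121 and 479 CPM), Col12a1 (0.604 and 23.2 CPM), Col27a1 (18.0 and 46.2 CPM) and Col8a1 (12.6 and 27.5 CPM). Col12a1, Col27a1 and Col8a1 reached 20 CPM through the 72 h library alone and so had to be higher. Of the 17 listed collagens, 4 did not reach it. Col14a1, a fibril-associated collagen, was at 1509 and 984 CPM, and Col6a1 at 286 and 241 CPM. Without cells that had at least 3 markers of another cell type, the signature ratio was 3.69.

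In number past 2-fold, basement membrane genes were near the background of all genes, 6.56% higher and 9.73% lower. Of 11 at 20 CPM or more, 0 were 2-fold higher and 2 were lower, with a median ratio of 0.842 beside 0.862 for all genes. The 2 were the laminin chains Lama1 (123 and 55.4 CPM) and Lamb1 (262 and 129 CPM), and under the median ratio scaling 0 were lower. The summed level of the list went from 6473 CPM to 10023 CPM with Sparc (4658 and 8281 CPM), a collagen-binding matricellular protein as the largest part. Col4a1 and Col4a2, the chains of type IV collagen, were at 443 and 457 CPM and at 281 and 466 CPM.

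Matrix glycoproteins and proteoglycans moved both ways. Of 23 at 20 CPM or more, 9 were at least 2-fold higher and 4 lower (Efemp1, Dcn, Ecm1 and Tgfbi), and the summed level went from 57053 CPM to 23063 CPM with Dcn and Ecm1 included. Cthrc1, a secreted glycoprotein with a collagen-like repeat, was at 0.172 CPM (8 UMIs) in uninjured cells and 75.6 CPM at 72 h, a 438-fold ratio with a wide interval (222 to 1015). Fmod, which encodes the proteoglycan fibromodulin, was at 0.302 and 27.2 CPM, and the microfibril gene Mfap4 at 0.302 and 37.1 CPM. Also higher were Eln at 30.3 and 150.2 CPM, Fbn1 at 68.6 and 150.2 CPM, Fbln1 at 3.06 and 37.5 CPM and Mfap2 at 20.2 and 167 CPM. The matricellular genes Tnc (11.5 and 62.2 CPM) and Thbs1 (33.1 and 111 CPM) were higher as well. Cthrc1, Fmod, Mfap4, Fbln1 and Tnc reached 20 CPM through the 72 h library alone and so had to be higher. Ltbp2, a latent TGF-beta binding protein of elastic fibres, had 3 UMIs in the uninjured library and was at 74.7 CPM at 72 h, a ratio of 1155 (395 to 5603), which its few uninjured UMIs leave imprecise. The CPM fold of Ltbp2 was 691 without cells with at least 3 markers of another cell type.

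Among enzymes that process collagen, those past 2-fold were crosslinking enzymes. Of 21 genes at 20 CPM or more, 3 were at least 2-fold higher, all lysyl oxidases, which oxidise lysines of collagen and elastin for crosslinks. Lox was at 2.48 and 82.5 CPM (33.3-fold, 27.7 to 40.4), Loxl1 at 65.4 and 273 CPM (4.17-fold) and Loxl2 at 82.1 and 217 CPM (2.64-fold). Lox reached 20 CPM at 72 h alone and so had to be higher. Serpinh1, the collagen chaperone HSP47, lay within 2-fold at 1589 and 2946 CPM. The prolyl hydroxylase subunit P4ha1 was at 161 and 80.8 CPM, and the lysyl hydroxylase Plod2 at 33.4 and 45.4 CPM. Of 34 genes of the secretory pathway, 1 was at least 2-fold higher, the retrieval receptor Kdelr3 (40.5 and 124 CPM), and 7 were lower. The lower ones included the endoplasmic reticulum chaperone Hspa5 (962 and 363 CPM) and the stress response genes Xbp1 (311 and 138 CPM), Ddit3 (60.9 and 20.5 CPM) and Herpud1 (147 and 40.7 CPM). Under the median ratio scaling, 2 genes of this list were higher and 5 lower.

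Of 32 contractile and cytoskeletal genes, 6 were at least 2-fold higher and 0 lower. Acta2 led, followed by Tpm1 (203 and 826 CPM, 4.07-fold), Tubb6 (71.3 and 245 CPM), the intermediate filament gene Vim (613 and 2020.5 CPM), Myh10 and Tpm2 (168 and 357 CPM). Myh10, at 19.2 and 51.7 CPM, reached 20 CPM at 72 h alone and so had to be higher. Tagln, an actin-binding protein of smooth muscle, was just within 2-fold at 382 and 739.6 CPM. Cytoplasmic Actb, at 5727 and 3652 CPM, went the other way. Of listed smooth muscle genes, Myh11 was at 18.6 and 22.9 CPM, Actg2 at 0.259 and 19.7 CPM, Lmod1 at 4.10 and 12.1 CPM and Cnn1 at 0 and 1.97 CPM, the last 3 below the limit of 20 CPM. Leaving out mitochondrial and ribosomal UMIs gave 10 genes higher and 0 lower.

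Of 19 proteases and inhibitors, 5 were at least 2-fold higher and 2 lower. Beside Timp1, these were Plat, the tissue plasminogen activator (4.40 and 57.7 CPM, 13.1-fold), Serpine2, which inhibits thrombin and plasminogen activators (16.5 and 90.3 CPM), Mmp23 (33.6 and 215 CPM) and the serine protease Htra3 (48.5 and 158 CPM). Timp1, Plat and Serpine2 reached 20 CPM through the 72 h library alone and so had to be higher. The cathepsin Ctsl (1005 and 357 CPM) and the versican-cleaving protease Adamts1 (465 and 129 CPM) were lower. Timp2 was at 421 and 702 CPM and Mmp14, a membrane-bound collagenase, at 72.3 and 81.6 CPM.

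Growth factors and their receptors did not move as a group. Of 22, 5 were at least 2-fold higher and 2 lower, with a median ratio of 0.972. The higher ones were Figf, Igf1 (5.43 and 50.4 CPM), Gas6, a ligand of the Axl family of receptors (2.78 and 41.5 CPM), Mdk (11.1 and 41.6 CPM) and Wnt4 (118 and 267 CPM). All but Wnt4 reached 20 CPM through the 72 h library alone and so had to be higher. Igfbp3, which binds insulin-like growth factors, was at 873 and 251 CPM, and the angiotensin receptor Agtr1a at 877 and 391 CPM. Rspo3, a Wnt agonist of stellate cells near the central vein, was at 864 and 938 CPM. The response genes of TGF-beta and YAP gave 3 higher and 3 lower of 24, with Cyr61 at 814 and 778 CPM and Ctgf at 103 and 51.5 CPM. This balance was not stable, with 1 higher and 4 lower without cells with at least 3 markers of another cell type, and 5 higher and 1 lower without mitochondrial and ribosomal UMIs. Wisp2, at 0.302 and 30.2 CPM, was higher (interval of the ratio 59.5 to 183), and so was Smad6, an inhibitor of BMP signalling (2.06-fold), while Inhba (56.7 and 24.6 CPM) was lower. Wisp2 and Ltbp2, which is in this list, reached 20 CPM at 72 h alone and so had to be higher. Without cells with at least 3 markers of another cell type, the CPM fold of Gas6 was 7.37 beside 14.9, the CPM fold of Wisp2 57.6 and the CPM fold of Figf 67.9.

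Part of the inflammatory and antigen presentation genes were lower. Of 18 chemokines, cytokines and acute phase genes, 8 were at least 2-fold lower and 1 higher, Tslp (9.07 and 22.2 CPM). Tslp reached 20 CPM at 72 h alone and so had to be higher. The monocyte chemokine Ccl2 was at 1334 and 319 CPM, Cxcl10 at 467 and 182 CPM and Cxcl12, which retains haematopoietic cells, at 5621 and 2804 CPM. Of 32 interferon and MHC class I genes, 8 were lower and 0 higher, with B2m, the light chain of MHC class I, at 10931 and 5074 CPM, H2-D1 at 6367 and 1604 CPM, H2-K1 at 3109 and 918 CPM and the transcription factor Irf1 at 297 and 69.0 CPM. The ratios of H2-D1 and H2-K1 are uncertain because these genes share sequence, and under the median ratio scaling B2m and Cxcl12 lay within 2-fold. Apoe, the lipoprotein component, which is in no list and was chosen after its values were seen, was at 9404 and 2592 CPM.

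Genes known to respond to tissue handling were lower too. Of 15 heat shock genes, 11 were at least 2-fold lower at 72 h, beside 9.73% of all genes, and 0 higher, with a median ratio of 0.393. The chaperone Hsph1 was at 91.5 and 3.62 CPM, Dnajb1 at 227 and 48.8 CPM and Hsp90aa1 at 545 and 160.4 CPM, while Hspa1a and Hspa1b, near-identical copies, cannot be separated with certainty. Among the 11, Hspa1a, Hspa1b and Hsph1 reached 20 CPM through the uninjured library alone and so had to be lower. Of 21 immediate early genes, 7 were at least 2-fold lower and 0 higher, among them Dusp1 at 1525 and 497 CPM and Junb at 2646 and 1271 CPM, the latter within 2-fold under the median ratio scaling. Fos, at 3597 and 1849 CPM, lay just within 2-fold. The part of handling stress in the inflammatory, chaperone and stress response values was not tested.

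**Figure D3:**
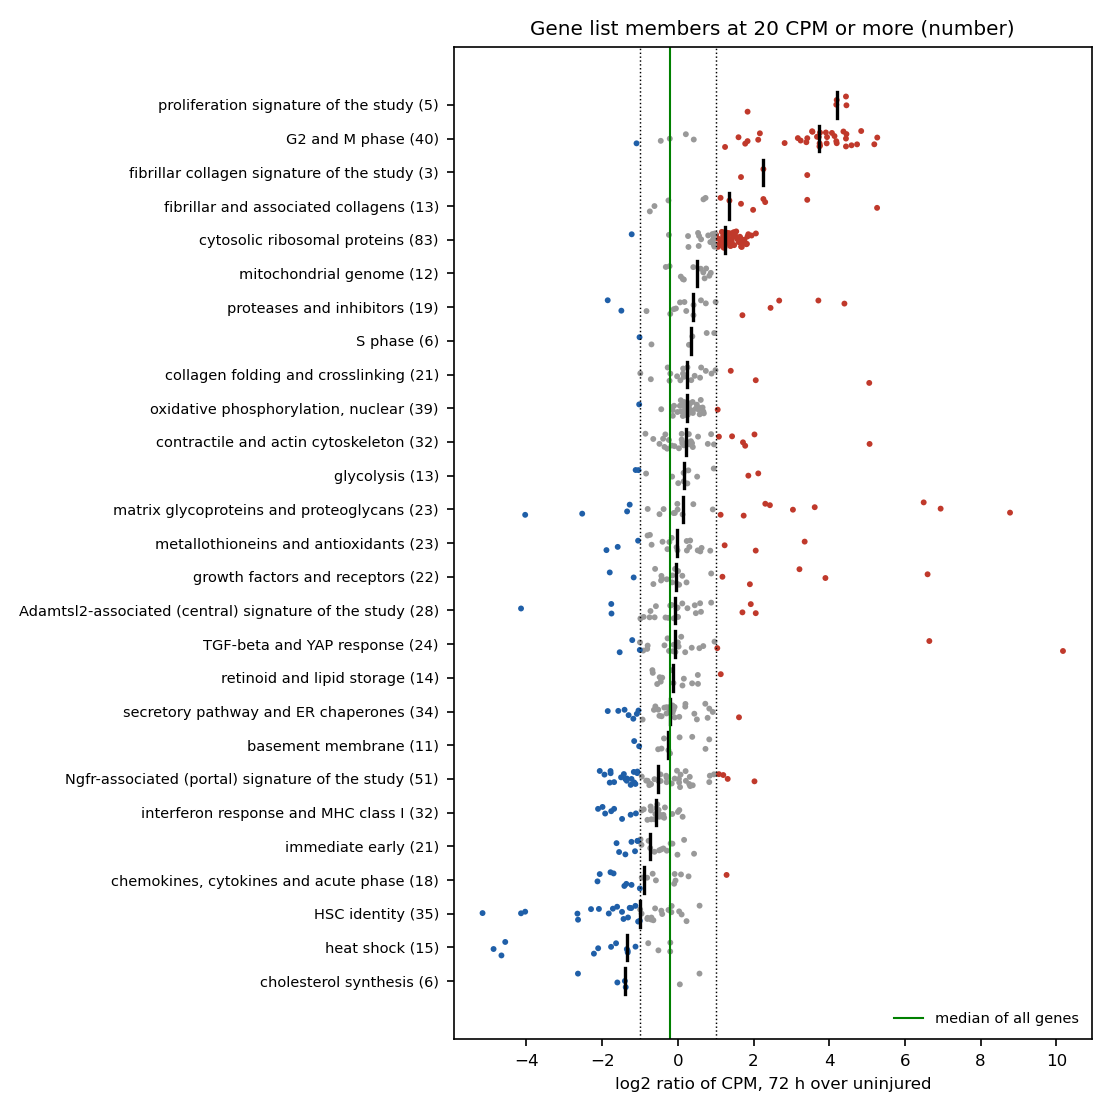
Log2 ratio of CPM, 72 h over uninjured, for the members of each gene list at 20 CPM or more; each point is 1 gene, black bars are list medians, the green line is the median of all 6231 genes (-0.214) and dotted lines mark 2-fold. Genes of G2 and M phase, fibrillar collagens and ribosomal proteins lay to the right, and heat shock, HSC identity and chemokine genes to the left.

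Most listed genes of cell division were higher at 72 h. Of 40 genes of G2 and M phase at 20 CPM or more, 35 were at least 2-fold higher and 1 lower, Pttg1 (162 and 76.2 CPM), with a median ratio of 13.3. A member that reached 20 CPM through the 72 h library alone had to be higher. Of the 35, only Smc4, Hmgb2, H2afz and Stmn1 were at 20 CPM or more in uninjured cells too. The count of 35 was thus largely fixed by the limit, and 15 of the 55 listed genes did not reach 20 CPM. Over all 55 at any level, 49 were at least 2-fold higher and 1 lower, with a median ratio of 11.9. Without the limit of 20 CPM, 2473 of all 16538 genes found in at least 3 cells of a library were higher and 1734 lower. The median ratio of those 16538 was 0.909. Plk1, a mitotic kinase, was at 1.66 and 36.1 CPM, Cenpf, a kinetochore protein, at 4.59 and 95.3 CPM, Top2a, the topoisomerase of dividing cells, at 7.57 and 71.7 CPM and Cdk1, the kinase that drives entry into mitosis, at 13.5 and 95.1 CPM. Mki67, the antigen Ki-67, was at 14.6 and 52.3 CPM. Of the 38 S phase genes, 6 reached 20 CPM, with 0 higher and 1 lower. Their summed level was 436 and 538 CPM, beside 1508 and 4858 CPM for the 55 genes of G2 and M phase. In uninjured cells, much of that latter sum came from Cks2, H2afz, Tubb4b and Pttg1 (286, 282, 245 and 162 CPM). Counted at any level, 20 of the 38 were at least 2-fold higher and 1 lower, with a median ratio of 2.09. These counts too are to be read beside 2473 higher and 1734 lower of 16538 genes. Gins2 (2.11 and 14.6 CPM), Rrm2 (2.07 and 11.9 CPM) and Uhrf1 (1.23 and 8.83 CPM) were higher, whereas the replication clamp Pcna (ratio 0.617) and the helicase subunit Mcm2 (14.9 and 8.30 CPM) had lower levels.

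UMIs of at least 2 of the 5 proliferation genes (Mki67, Cdca8, Cdc20, Ccna2 and Ccnb1) were found in 1254 of 7310 cells at 72 h, or 17.2% (interval 16.3 to 18.0), and in 40 of 6850 uninjured cells, or 0.584% (0.417 to 0.794). At 2000 UMIs per cell the shares were 9.37% (8.71 to 10.1) and 0.327% (0.205 to 0.494). Both shares were lower at equal depth, and the intervals cover counting error within each library, not the spread between mice. The 1254 cells had a median of 13822.5 UMIs, beside 10987.0 in the other cells of the library, and held 22.8% of its UMIs. Between these cells and the others of the 72 h library, levels of matrix and contractile genes were close, with Col1a1 at 1982 and 2202 CPM, Acta2 at 885 and 868 CPM and Cthrc1 at 75.3 and 75.6 CPM. Reln (411 and 609.7 CPM) and Lrat (646 and 1029 CPM) were lower in the cells with proliferation genes, and Lgals1, which encodes galectin-1, was higher (3423 and 2312 CPM). Without the cells with proliferation genes in both libraries, the numbers of genes 2-fold higher and lower were 343 and 622. Called doublets had a median of 16380.0 UMIs at 72 h, and without them the share was 16.5%.

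Mitotic genes are often read by the MuvB complex with B-MYB and FOXM1, which binds a cell cycle homology region (CHR), and by NF-Y, which binds the CCAAT box. The 250 bases before the start of 27 of the 35 higher G2 and M genes were found in the RefSeq table of GRCm38.p6. On either strand, the CHR letters TTTGAA occurred in 11 of 27 (40.7%) beside 16.3% of all 27025 promoters, and CCAAT in 23 of 27 (85.2%) beside 34.2%. Both motifs stood in the same 11 promoters, beside 5.67% of all. Among the 4802 promoters of genes at 20 CPM or more, the shares were 10.1% for CHR, 36.1% for CCAAT and 3.75% for both. Of the 32 promoters of G2 and M genes at 20 CPM or more, changed or not, 13 held CHR letters (40.6%) and 26 CCAAT (81.2%). The letters thus go with the list, and these shares do not tie them to the change at 72 h. Such matches are a description of letters and do not show binding. The promoters of 4 genes among the largest ratios are shown because they differ in these letters, 5′ to 3′ on the strand of the gene, with CHR and CCAAT letters of either strand in capitals. Ccnb2 is at chr9:70421555-70421804 on the minus strand, Ube2c at chr2:164769679-164769928, Cdca3 at chr6:124829926-124830175 and Birc5 at chr11:117848987-117849236, these last on the plus strand.
Ccnb2: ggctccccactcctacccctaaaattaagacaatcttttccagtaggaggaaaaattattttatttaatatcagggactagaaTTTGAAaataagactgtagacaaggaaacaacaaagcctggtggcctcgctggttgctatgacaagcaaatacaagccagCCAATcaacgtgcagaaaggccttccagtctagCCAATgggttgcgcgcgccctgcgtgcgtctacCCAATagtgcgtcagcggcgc
Ube2c: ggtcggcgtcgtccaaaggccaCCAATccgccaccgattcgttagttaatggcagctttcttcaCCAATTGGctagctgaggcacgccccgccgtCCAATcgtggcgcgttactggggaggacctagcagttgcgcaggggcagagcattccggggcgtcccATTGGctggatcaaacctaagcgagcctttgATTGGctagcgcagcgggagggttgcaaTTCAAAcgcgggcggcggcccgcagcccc
Cdca3: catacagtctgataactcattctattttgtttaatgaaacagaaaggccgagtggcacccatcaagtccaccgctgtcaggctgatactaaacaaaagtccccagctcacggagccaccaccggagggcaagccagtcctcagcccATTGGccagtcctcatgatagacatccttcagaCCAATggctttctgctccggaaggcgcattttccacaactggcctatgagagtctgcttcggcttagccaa
Birc5: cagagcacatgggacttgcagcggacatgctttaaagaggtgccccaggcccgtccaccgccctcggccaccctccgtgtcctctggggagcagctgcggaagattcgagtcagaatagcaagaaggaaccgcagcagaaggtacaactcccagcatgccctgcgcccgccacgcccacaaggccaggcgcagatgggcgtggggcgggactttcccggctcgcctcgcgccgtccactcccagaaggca
Ccnb2, which encodes cyclin B2 (4.94 and 142 CPM), held CHR letters once and CCAAT letters 3 times. Ube2c, the ubiquitin-conjugating enzyme of the anaphase-promoting complex (5.02 and 121 CPM), held CHR letters once and CCAAT letters 6 times over both strands, a pair of them overlapping. In the windows shown, Cdca3 (2.91 and 106 CPM) held CCAAT letters only, and Birc5, which encodes survivin (2.61 and 101 CPM), held neither. The windows precede the RefSeq starts, and the Ensembl annotation places some starts elsewhere. The Ensembl start of Cdca3, chr6:124829547, lies before the whole window, and the bases before that start were not searched. The Ensembl start of Ube2c, chr2:164769898, lies within its window, and the CHR letters marked there come after that start.

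Genes of protein synthesis took a larger share at 72 h. Of 83 cytosolic ribosomal protein genes, 64 were at least 2-fold higher and 1 lower, Rps27rt, with a summed level of 95292 and 225575 CPM. Rplp0 was at 1000.4 and 4179.9 CPM and Rpl41 at 2493 and 7168 CPM, and the translation factor Eef1a1, outside the list, at 2670.1 and 7890.2 CPM. The 12 genes of the mitochondrial genome at 20 CPM or more had a median ratio of 1.42, with 0 past 2-fold. Metabolic genes were mixed. Of 13 glycolytic genes, 2 were higher, Hk2 (20.8 and 75.5 CPM) and the lactate transporter Slc16a3 (5.13 and 22.4 CPM), and 2 lower, Pfkp and Aldoa, while under the median ratio scaling 3 were higher and 0 lower. Slc16a3 reached 20 CPM at 72 h alone and so had to be higher. Of 6 genes of cholesterol synthesis, 4 were lower, among them Msmo1 (20.3 and 3.27 CPM) and Srebf2 (20.6 and 6.80 CPM). These 2 and Fdps (23.5 and 9.06 CPM) reached 20 CPM through the uninjured library alone and so had to be lower. The other 16 of the 22 listed genes did not reach it, and all 22 summed to 261 and 182 CPM. Of 39 nuclear genes of oxidative phosphorylation, 1 was higher and 1 lower. Of 23 metallothionein and antioxidant genes, 3 were higher and 3 lower, with Gpx7 at 49.6 and 206 CPM and Prdx4, a peroxiredoxin of the endoplasmic reticulum, at 119.8 and 282 CPM.

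The gain in collagen was shared widely among the cells but unevenly. At 2000 UMIs per cell, the median cell held 4 collagen signature UMIs in the uninjured library and 13 at 72 h. The middle 50% of cells spanned 2 to 5 UMIs and 7 to 23 UMIs, so these ranges did not overlap. The uninjured cell at the 99th percentile held 14, and 47.1% of cells at 72 h (interval 45.9 to 48.2) held more than that, beside 0.920% of uninjured cells. At the other end, 10% of cells at 72 h held 4 or fewer, the uninjured median.

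**Figure D4:**
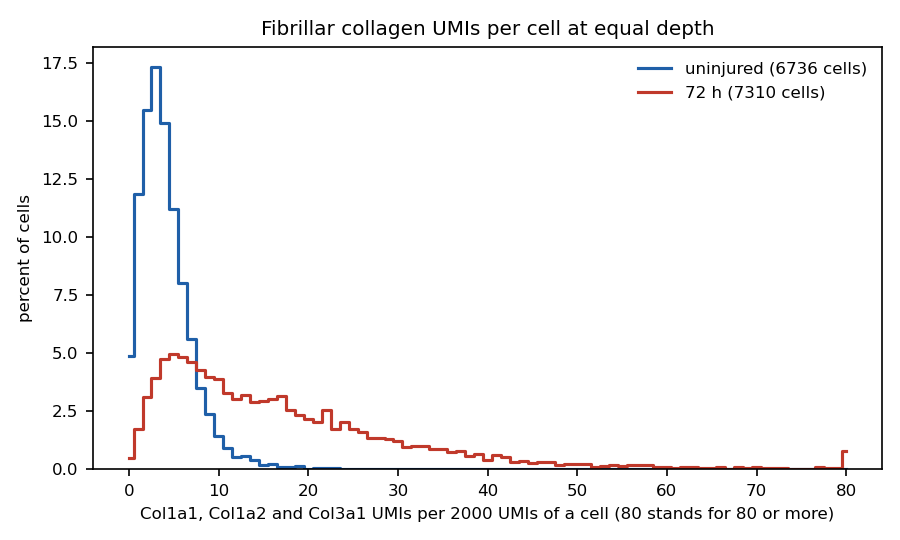
Percent of cells (y axis) by the number of Col1a1, Col1a2 and Col3a1 UMIs among 2000 UMIs drawn from each cell (x axis, with 80 standing for 80 or more), for 6736 uninjured cells (blue) and 7310 cells at 72 h (red). The uninjured cells peak around a median of 4 and the 72 h cells spread widely around a median of 13.

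Cells of the 72 h library were ranked by these thinned collagen UMIs and divided into quintiles, of which the lowest and highest held on average 3.49 and 40.4 collagen UMIs per 2000. The division is one of a range, not of types, and 984 of 7310 cells held exactly the number at a cut. From the lowest to the highest quintile, S100a6 went from 60.8 to 858 CPM, Cthrc1 from 7.65 to 197 CPM, Figf from 19.6 to 241 CPM, Lox from 13.7 to 169 CPM and Acta2 from 333 to 1580.5 CPM. Each of these was higher at every step. Free RNA in the droplets was not estimated, and its part in the levels of the lowest quintile was not tested. Genes of the resting cell were lower at every step of the same quintiles, Ecm1 from 1746 to 505 CPM, Fcna from 352 to 84.1 CPM and Rgs5 from 1394 to 293 CPM. The lowest collagen quintile was still far below the uninjured level of Ecm1 (15298 CPM) and Fcna (3327 CPM). Reln (523 and 536 CPM) and Tcf21 (16.8 and 13.2 CPM) were nearly level across the quintiles, and Mki67 was at 60.7 and 48.7 CPM. Median depth was 10018.0 UMIs in the lowest and 12960.5 in the highest quintile, and its part in these levels was not tested. In the uninjured library, where 3760 of 6736 cells held the number at a cut, the same division gave 15942 and 14062 CPM for Ecm1 and 2627 and 2167 CPM for Rgs5. S100a6, Cthrc1, Figf, Lox and Acta2 were higher in the highest than in the lowest uninjured quintile too, at lower levels than at 72 h. There S100a6 went from 0.749 to 15.2 CPM and Acta2 from 15.4 to 57.3 CPM, neither of them higher at every step. A rise of these genes with collagen was thus not particular to 72 h.

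**Figure D5:**
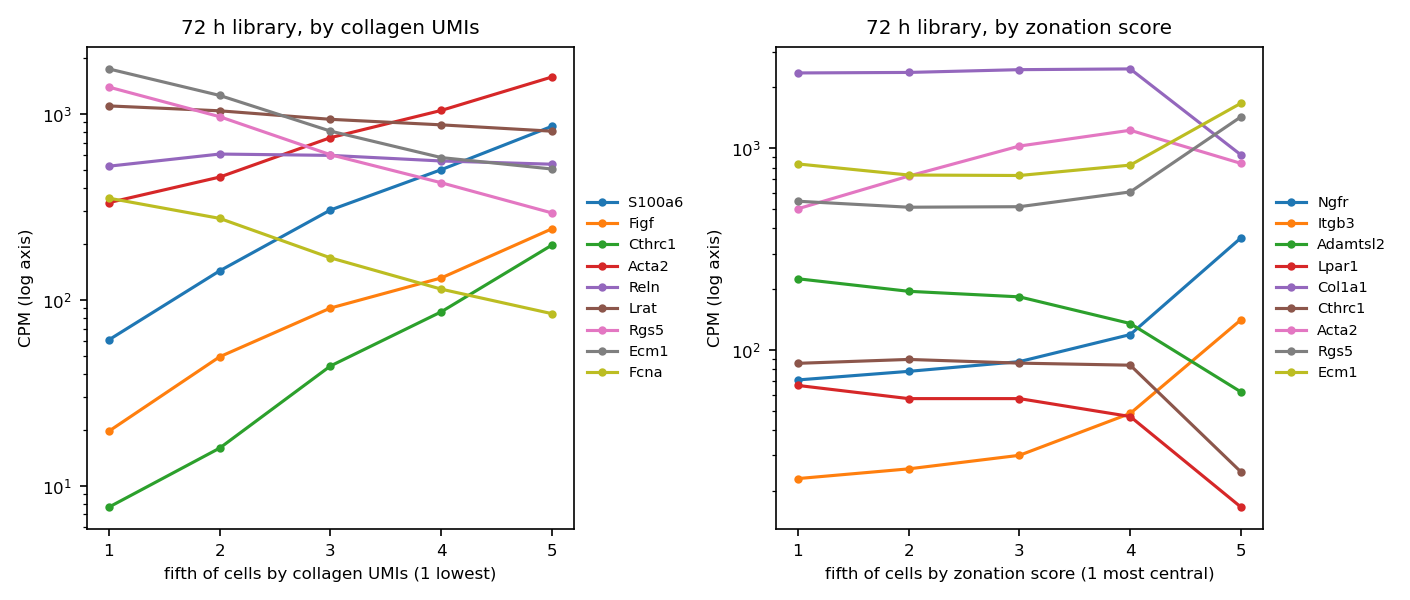
Level in CPM (log axis) of selected genes over quintiles of the 72 h cells, ordered by collagen signature UMIs at equal depth (left) or by the zonation score from central to portal (right); each point is the summed level of 1 quintile. S100a6, Figf and Cthrc1 climb and Ecm1, Fcna and Rgs5 descend with collagen, and Col1a1 stays near 2400 CPM over 4 quintiles and is at 924 CPM in the most portal quintile.

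The position of stellate cells along the lobule was read from the study's lists of 52 genes associated with portal Ngfr and 29 with central Adamtsl2, which the study chose on uninjured cells. Of the portal genes, 51 reached 20 CPM, and 18 were at least 2-fold lower at 72 h and 4 higher. The counts were 14 and 6 under the median ratio scaling, 11 and 7 without mitochondrial and ribosomal UMIs, and 13 and 4 without cells with at least 3 markers of another cell type. Of 28 central genes, 3 were lower and 3 higher. Ngfr, the low-affinity neurotrophin receptor, was at 297 and 137 CPM and Itgb3, an integrin subunit, at 88.9 and 51.2 CPM, while Adamtsl2 was at 186 and 162 CPM and Lpar1, a receptor for lysophosphatidic acid, at 49.5 and 49.7 CPM. The CPM fold of Ngfr was 0.526 without cells with at least 3 markers of another cell type and 0.514 under the median ratio scaling, within 2-fold in both. Each cell received a score at equal depth, the average of standardized portal genes less that of the central genes, with the gene reported left out, and cells were divided by it into quintiles. At 72 h, 50 of the 52 portal genes had a positive relation to the score of the other genes and 26 of the 29 central genes a negative one, beside 52 and 29 in the uninjured cells on which the lists were chosen.

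In uninjured cells collagen was level across the lobule score, with Col1a1 at 205 CPM in the most central quintile and 181 CPM in the most portal. At 72 h it was at 2356, 2369.8, 2446, 2467 and 924 CPM from the central to the portal quintile. The 4 central quintiles did not differ by much, and the most portal quintile stood apart. Cthrc1 (85.7 and 24.8 CPM), Lox (91.4 and 29.6 CPM) and S100a6 (358 and 211 CPM) were also lower in the most portal than in the most central quintile, and Ecm1 (834 and 1669 CPM) and Rgs5 (545 and 1429 CPM) higher. Acta2 differed from the collagens. It was at 499.9 CPM in the most central quintile, 1225 CPM in the next to last and 839 CPM in the most portal, and in uninjured cells it went from 2.59 to 91.8 CPM. Col1a1 in the most portal quintile, at 924 CPM, was still above the 181 CPM of the most portal uninjured quintile. Scores and quintiles were set within each library, so the same quintile need not hold cells of the same position in both. The lists also hold genes that changed at 72 h, such as portal Tpm1 and Tpm2 and central Loxl1 and Htra3, which were higher, and central Fcna, which was lower. Their part in the order of the cells was not tested. Mki67 was at 35.8 CPM in the most central quintile and between 54.2 and 57.3 CPM in the others. Across cells the rank correlation of the score with collagen UMIs was -0.379 at 72 h and -0.0400 in uninjured cells, as a description of cells that share a library. The portal quintile had the lowest depth, with a median of 9843.0 UMIs beside 11408.5 to 12129.0 in the others, and 293 cells lay within 0.1 standard deviations of its cut.

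The library of HSCs after 6 weeks of CCl4, made with the same digestion from 3 mice, gives a second level of injury. It shares the uninjured library as its control, so its values are only set beside those at 72 h. Col1a1 was at 650.2 CPM and Acta2 at 156 CPM at 6 weeks, between the uninjured and 72 h levels. Ecm1 was at 5259.6 CPM, Tcf21 at 264 CPM and Fcna at 807 CPM, again between them. Cthrc1, at 3.48 CPM, also lay between them. Mki67 was at 8.94 CPM and Wisp2 at 0.440 CPM, beside 14.6 and 0.302 CPM in uninjured cells. Gpx3, at 353 CPM, and Dpt, at 165 CPM, were higher at 6 weeks than at 72 h, and Wt1 was at 39.1 CPM beside 34.2 CPM. Reln (1279 CPM), Rgs5 (2310.3 CPM) and B2m (10895 CPM) were near their uninjured levels at 6 weeks. Of the handling genes, Hsph1 was at 101 CPM and Hspa1a at 294 CPM at 6 weeks, also near the uninjured library rather than the one at 72 h.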

How the data were processed

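Single-cell RNA was measured with 10X Chromium 3' chemistry in sorted HSCs, 1 library of 3 pooled mice for each condition. The authors mapped reads to mm10 and deposited raw UMI counts, and the submitters' processing notes name Cell Ranger 2.1.0. Cells under 300 genes or over 30% mitochondrial UMIs were left out. Counts were summed per gene and given as CPM, with exact Poisson intervals for levels and exact conditional binomial intervals for ratios, all at 95% and for counting error only. Counts under 3 were set to 3 in ratios. With 1 library a side, no test was made. Depths were equalised by drawing 2000 UMIs from each cell, and 114 shallower uninjured cells were left out of those values. Likely doublets, found by their similarity to simulated pairs (375 uninjured and 427 at 72 h), stayed in and were left out as an alternative. Python 3.11.15 ran SciPy 1.17.1, NumPy 2.4.6, scikit-learn 1.9.0 and pandas 2.3.3. The calculation of the ratios was checked on simulated counts with known changes and counting error only. Such counts hold no spread between mice or libraries, so that check says nothing on the ratios found here.

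Genes named by rule were the 12 largest ratios each way at 100 CPM or more, the 2 members of highest CPM and the 2 of largest ratio in each list, the markers, and genes the study names. Further list members were named after their values were seen. Members and lists were chosen with earlier results of these data known. A few genes that the rule names are not reported here.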

Additional observations from a re-analysis of the deposited data

How the results depend on the processing

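Leaving out mitochondrial and ribosomal UMIs gave 629 genes higher and 353 lower. Requiring 20 CPM in both libraries gave 207 and 333, 50 CPM in either 249 and 353, and no filter beyond 3 cells 2473 and 1734. The collagen ratio was 3.69 without cells with markers of another type, 4.52 without cells with proliferation genes, 4.17 with cells weighted equally, 4.90 with the median ratio, 4.74 with the trimmed mean of M values and 5.22 without mitochondrial and ribosomal UMIs. The share of cells with proliferation genes was 15.7% without cells with markers of another type, 14.9% without the 5% of cells at each end of depth, 9.37% at equal depth, 34.5% with 1 gene required and 13.8% with 3. The CPM fold of Mki67 was 0.548 without the cells with at least 2 proliferation genes, of which it is 1. Among the 87 named genes past 2-fold, it was the 1 whose direction reversed in this setting. Mki67 was at 6.15 CPM in the remaining cells at 72 h, beside 14.6 CPM in the whole uninjured library. The cells left out were chosen in part by their UMIs of Mki67. Its lower level in the remaining cells follows from that choice and cannot show where its gain lay. Birc5, Cdca3, Ccnb2, Ube2c and Stmn1, which were not used in the choice, stayed more than 2-fold higher in this setting. The ratio of Cenpa fell but stayed past 2-fold, and H2afz came to lie within it. The G2 and M list as a whole did not keep its gain. In this setting 13 of its genes reached 20 CPM, with 5 higher, 3 lower and a median ratio of 1.15. With all cells, 35 of 40 were higher and 1 lower, with a median ratio of 13.3. Of all 6162 genes in this setting, 343 were higher and 622 lower. Of 87 named genes past 2-fold, 8 fell within it without cells with markers of another type, among them Ngfr, Lama1 and Cxcl12, and 11 under the median ratio, among them B2m and Junb. No paired analysis was possible because each condition had 1 library. The depth of single cells limits shares of cells with a UMI.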
